A study of Rattus norvegicus with 50 samples.

Results

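The collagen genes are the 20 transcript clusters, of 15049 tested, whose gene symbol has the form Col, a number, the letter a and a number. A transcript cluster is the group of probes that measures 1 gene on the Affymetrix GeneChip Rat Clariom S microarray, and each of the 20 genes had 1 cluster. The RefSeq table for rat holds 44 genes of this form, and the other 24, among them *Col4a2*, *Col6a1*, *Col6a3*, *Col9a3*, *Col12a1* and *Col25a1*, were not named in the annotation used here and were not analysed here. By class, the measured genes were 8 fibrillar collagens (*Col1a1*, *Col1a2*, *Col2a1*, *Col3a1*, *Col5a1*, *Col5a3*, *Col11a1* and *Col11a2*), 4 of the basement membrane and its zone (*Col4a1*, *Col4a4*, *Col15a1* and *Col18a1*), 3 FACIT collagens, which sit on the surface of fibrils (*Col9a1*, *Col9a2* and *Col14a1*), 2 transmembrane collagens (*Col13a1* and *Col23a1*), and 1 each of the beaded filaments (*Col6a2*), the short-chain networks (*Col8a1*) and neither of these (*Col26a1*).

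Collagens are the triple-helical proteins of the extracellular matrix, built from chains in which glycine recurs at regular intervals. Fibrillar collagens form the fibres of connective tissue, and in the brain they are mostly made by fibroblasts of the meninges and around larger vessels, whereas type IV collagen is a sheet-forming part of the basement membrane that surrounds brain capillaries. Circulating mononuclear cells are not known as a main source of either.

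RNA came from the hippocampus and from peripheral blood mononuclear cells (PBMC) of 25 male Wistar rats aged 3.5 months, with 1 array per animal and tissue. MONW-Lep rats (n = 9) received oral leptin at 5 times the amount taken in with milk on days 1 to 20 of life, and were then kept for 11 weeks on high-fat chow (60% of its calories as fat). MONW rats (metabolically obese, normal-weight, n = 8) received vehicle (Captisol) on those days and the same high-fat chow later. NW rats (normal-weight, n = 8) received vehicle and control chow (10% fat by calories), and both high-fat groups were given as many calories as NW rats. Litters were shared among animals and are not labelled per array, so p-values measure the spread between these arrays.

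Values are log2 values from robust multi-array averaging (RMA). The labelled tissues had the markers of their kind: the mean of 10 neuronal genes ran from 10.90 to 11.49 in hippocampus and from 6.23 to 6.82 in PBMC arrays, and the mean of 8 leukocyte genes ran from 6.34 to 6.79 in hippocampus and from 10.69 to 11.10 in PBMC arrays. The hippocampus array of MONW replicate 7 stood apart, with a mean of 9.46 over 7 striatal genes against a median of 7.19 over the tissue's arrays. Beyond that, the arrays differed in tissue that borders the hippocampus: the mean of 11 choroid plexus genes ran from 6.53 to 9.90 in MONW-Lep, from 6.24 to 10.28 in MONW and from 6.55 to 10.27 in NW arrays. In PBMC, the mean of 7 platelet genes ran from 7.29 to 11.07.

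Of the 5 collagens that varied together in the hippocampus (described later), RefSeq promoter sequence was supplied for *Col1a2* and *Col8a1*, and they are shown with *Col4a1*, which had the smallest spread between hippocampus arrays. Each run is the 250 bases before the RefSeq transcript start on the plus strand of GRCr8, at chr4:33518307-33518556 for *Col1a2*, chr11:56246532-56246781 for *Col8a1* (a start that lies inside the outer span of the gene) and chr16:84885347-84885596 for *Col4a1*. Capitals mark the TATA box letters TATAAA, the box CCAAT and the Sp1 site GGGCGG on either strand.
Col1a2: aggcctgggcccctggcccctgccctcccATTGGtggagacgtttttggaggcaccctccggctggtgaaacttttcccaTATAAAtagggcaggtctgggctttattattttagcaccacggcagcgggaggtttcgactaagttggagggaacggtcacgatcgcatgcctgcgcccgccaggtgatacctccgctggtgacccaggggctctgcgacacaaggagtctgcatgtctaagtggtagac
Col8a1: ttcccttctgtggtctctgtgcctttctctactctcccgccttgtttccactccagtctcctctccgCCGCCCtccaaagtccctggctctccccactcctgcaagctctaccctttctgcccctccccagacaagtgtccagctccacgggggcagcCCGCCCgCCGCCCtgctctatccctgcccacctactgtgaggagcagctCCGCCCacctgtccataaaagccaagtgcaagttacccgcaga
Col4a1: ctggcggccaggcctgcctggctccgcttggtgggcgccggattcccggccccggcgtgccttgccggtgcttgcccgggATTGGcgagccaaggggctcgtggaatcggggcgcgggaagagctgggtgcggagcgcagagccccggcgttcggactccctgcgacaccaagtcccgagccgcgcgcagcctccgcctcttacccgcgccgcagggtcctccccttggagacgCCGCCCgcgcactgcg
The *Col1a2* run held TATAAA and, on the opposite strand, CCAAT. The *Col8a1* run held GGGCGG 4 times on the opposite strand and neither of the other motifs, and the *Col4a1* run held CCAAT and GGGCGG, each on the opposite strand. Over the 15 collagen genes with a promoter sequence, TATAAA was found in 2 (12.9% of all 33469 promoters, in windows of the same length), CCAAT in 4 (34.0%), GGGCGG in 8 (30.5%) and TGANTCA, the site of AP-1, in 0 (6.34%). A gene was counted if any promoter entry given for it matched, whereas the percentages are over promoter entries. The matches shown do not overlap each other, and a match is a description of the letters only. The *Col4a1* window reaches into *Col4a2*, its partner chain in type IV collagen, which lies head to head with it on chromosome 16 with 76 bases between the genes. *Col4a4* lies head to head with *Col4a3* on chromosome 9, with 412 bases between them.

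Detection was set against 1153 negative control clusters, with an array counted as above background when its value was over their 95th percentile on that array. That percentile ran from 7.96 to 8.58 in hippocampus and from 8.59 to 9.51 in PBMC arrays. *Col5a1*, which encodes a chain of the type V collagen that starts and sizes fibrils, was above it in 25 of 25 hippocampus arrays and 5 of 25 PBMC arrays. *Col1a2*, the second chain of type I collagen, was above it in 19 of 25 hippocampus arrays and 0 of 25 PBMC arrays. The other 18 collagen genes were above it in 0 arrays of either tissue. Negative controls vary widely, and in hippocampus the mean of each collagen gene lay above 84.1% to 100% of 1187 clusters for olfactory, vomeronasal and taste receptors, a comparison added after the data were seen. In PBMC the same share ran from 75.9% for *Col8a1* to 100%. Of the negative controls, the gene means lay above 50.0% (*Col14a1*) to 96.2% (*Col5a1*) in hippocampus. In PBMC they lay above 24.7% (*Col8a1*) to 93.8% (*Col5a1*) of them. *Col4a4* lay above 52.0% of the negative controls in hippocampus and 28.8% in PBMC. A difference below background is given here as measured and is limited by it.

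**Figure D1:**
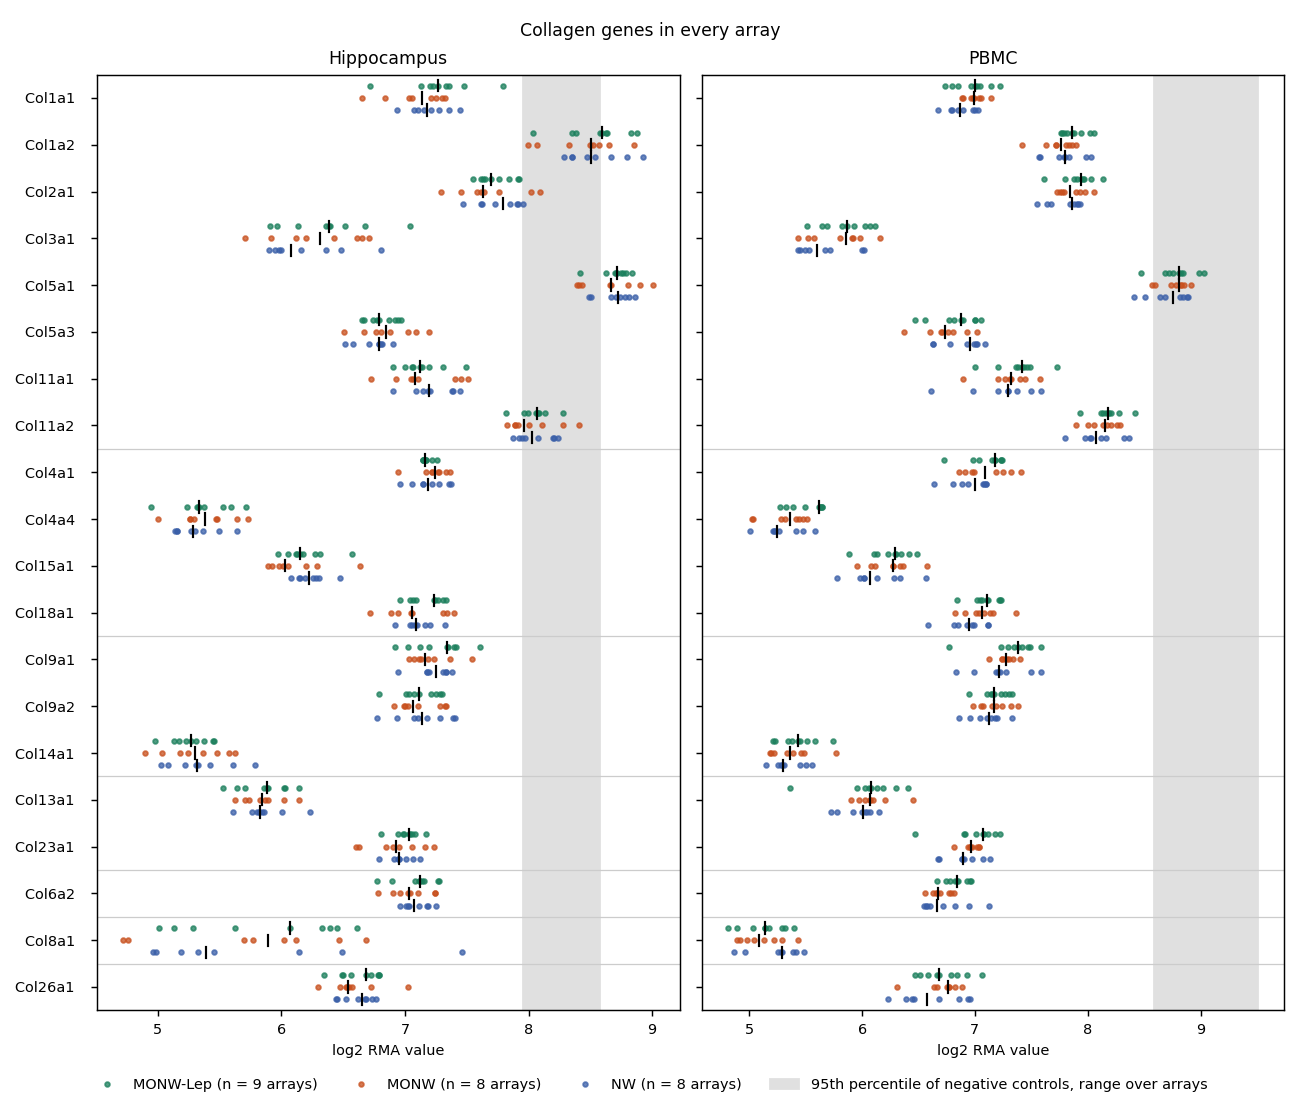
Log2 RMA values (x axis) of the 20 collagen genes, ordered by class, in hippocampus and PBMC. Each point is an array, coloured by group with MONW-Lep above MONW above NW, black bars are group medians, and the grey band is the range over arrays of the 95th percentile of negative controls. The groups overlap in every gene, and *Col8a1* in hippocampus is spread from 4.72 to 7.46.

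In the hippocampus, no collagen gene differed between groups at an unadjusted p under 0.05 by limma. This held for MONW-Lep versus MONW (0 of 20, with 3.1% of all genes tested past the threshold, 1.38% higher and 1.72% lower), for MONW versus NW (0 of 20, against 3.08%, 1.63% higher and 1.45% lower) and for MONW-Lep versus NW (0 of 20, against 2.34%, 0.957% higher and 1.38% lower). By the exact permutation test it was also 0 of 20 in each. No gene of the array passed an adjusted p under 0.05 in these comparisons. The 20 collagens had a median log2 difference of 0.05 in MONW-Lep versus MONW (all genes, -0.0034), -0.02 in MONW versus NW (all genes, -0.00036) and 0.0014 in MONW-Lep versus NW (all genes, -0.0040). The difference was above 0 for 14, 5 and 10 of the 20 genes, against 48.2%, 49.9% and 47.7% of all genes. These comparisons share samples, and the collagens covary between arrays, so the counts are a description.

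Among the fibrillar collagens, *Col1a1*, the main chain of type I collagen, had the largest difference of MONW-Lep versus MONW in hippocampus. Its lowest, median and highest log2 values were 6.72, 7.26 and 7.79 in MONW-Lep, 6.66, 7.13 and 7.32 in MONW, and 6.94, 7.18 and 7.44 in NW rats. The groups overlapped over most of their range. The log2 difference was 0.19 ± 0.11 (SE) in MONW-Lep versus MONW (p = 0.0895 by limma, adjusted p = 0.999, exact permutation p = 0.156). Without MONW-Lep replicate 7 it was 0.26 and passed the unadjusted threshold by limma. *Col1a2* ran 8.03, 8.60 and 8.87 in MONW-Lep, 8.00, 8.51 and 8.86 in MONW, and 8.28, 8.51 and 8.93 in NW rats. Its log2 difference was 0.11 ± 0.12 (SE) in MONW-Lep versus MONW and -0.11 ± 0.12 in MONW versus NW. *Col3a1*, the fibrillar collagen of elastic tissue and vessel walls, ran 5.91, 6.39 and 7.04 in MONW-Lep, 5.70, 6.31 and 6.71 in MONW, and 5.90, 6.08 and 6.81 in NW rats. Its largest log2 difference, 0.17 ± 0.16 (SE) in MONW-Lep versus NW, was near 1 standard error in size.

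For the other fibrillar collagens the groups also overlapped. *Col5a1* ran 8.42, 8.72 and 8.84 in MONW-Lep, 8.39, 8.66 and 9.01 in MONW, and 8.49, 8.72 and 8.86 in NW hippocampi, so the group it varied most in was MONW. *Col11a1*, known from the fine fibrils of cartilage, ran 6.90, 7.12 and 7.49 in MONW-Lep, 6.72, 7.08 and 7.51 in MONW, and 6.90, 7.20 and 7.45 in NW hippocampi. *Col2a1*, the main collagen of cartilage, and *Col11a2* also overlapped in all groups, with log2 differences between -0.08 and 0.05. *Col5a3* had a log2 difference of 0.13 ± 0.08 (SE) in MONW versus NW hippocampi (exact permutation p = 0.189). Without MONW replicate 3 this was 0.18 and passed the unadjusted threshold by limma.

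The basement membrane collagens were close between groups in hippocampus. *Col4a1*, a chain found in nearly every basement membrane, ran 7.14, 7.16 and 7.26 in MONW-Lep, 6.94, 7.24 and 7.37 in MONW, and 6.96, 7.18 and 7.38 in NW hippocampi. The MONW-Lep arrays lay inside the range of both other groups, and the 95% confidence interval of MONW-Lep minus MONW was -0.17 to 0.07. *Col18a1*, the source of endostatin, ran 6.96, 7.23 and 7.33 in MONW-Lep, 6.72, 7.05 and 7.40 in MONW, and 6.92, 7.09 and 7.32 in NW hippocampi. *Col15a1*, a vessel-wall collagen related to it, ran 5.97, 6.15 and 6.57 in MONW-Lep, 5.89, 6.03 and 6.64 in MONW, and 6.08, 6.22 and 6.47 in NW hippocampi. Its log2 difference in MONW versus NW was -0.11 ± 0.09 (SE) with all arrays (exact permutation p = 0.285). Without MONW replicate 7, the array rich in striatal genes, it was -0.18 and passed the unadjusted threshold by limma. *Col4a4*, a chain known from the glomerular basement membrane, was 5.37 ± 0.22, 5.39 ± 0.23 and 5.32 ± 0.18 in MONW-Lep, MONW and NW hippocampi (mean ± SD, n = 9, 8 and 8).

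The remaining classes likewise overlapped. The FACIT collagens *Col9a1*, *Col9a2* and *Col14a1*, of which the type IX chains coat cartilage fibrils, had log2 differences between -0.09 and 0.05 in the hippocampal comparisons. The transmembrane collagens *Col13a1* and *Col23a1* lay between -0.05 and 0.09. *Col6a2*, a chain of the beaded filaments that surround cells, ran 6.77, 7.12 and 7.28 in MONW-Lep, 6.78, 7.03 and 7.25 in MONW, and 6.96, 7.07 and 7.25 in NW hippocampi. *Col8a1*, a short-chain collagen made by endothelium and vessel walls, ran 5.01, 6.07 and 6.61 in MONW-Lep, 4.72, 5.90 and 6.68 in MONW, and 4.96, 5.39 and 7.46 in NW hippocampi. Its arrays were spread widely in every group, most of all in NW rats, and its difference of 0.10 in MONW-Lep versus MONW had a 95% confidence interval of -0.57 to 0.77, the widest of the 20 genes. *Col26a1*, a collagen first known from testis and ovary of mouse, lay between -0.03 and 0.04.

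**Figure D2:**
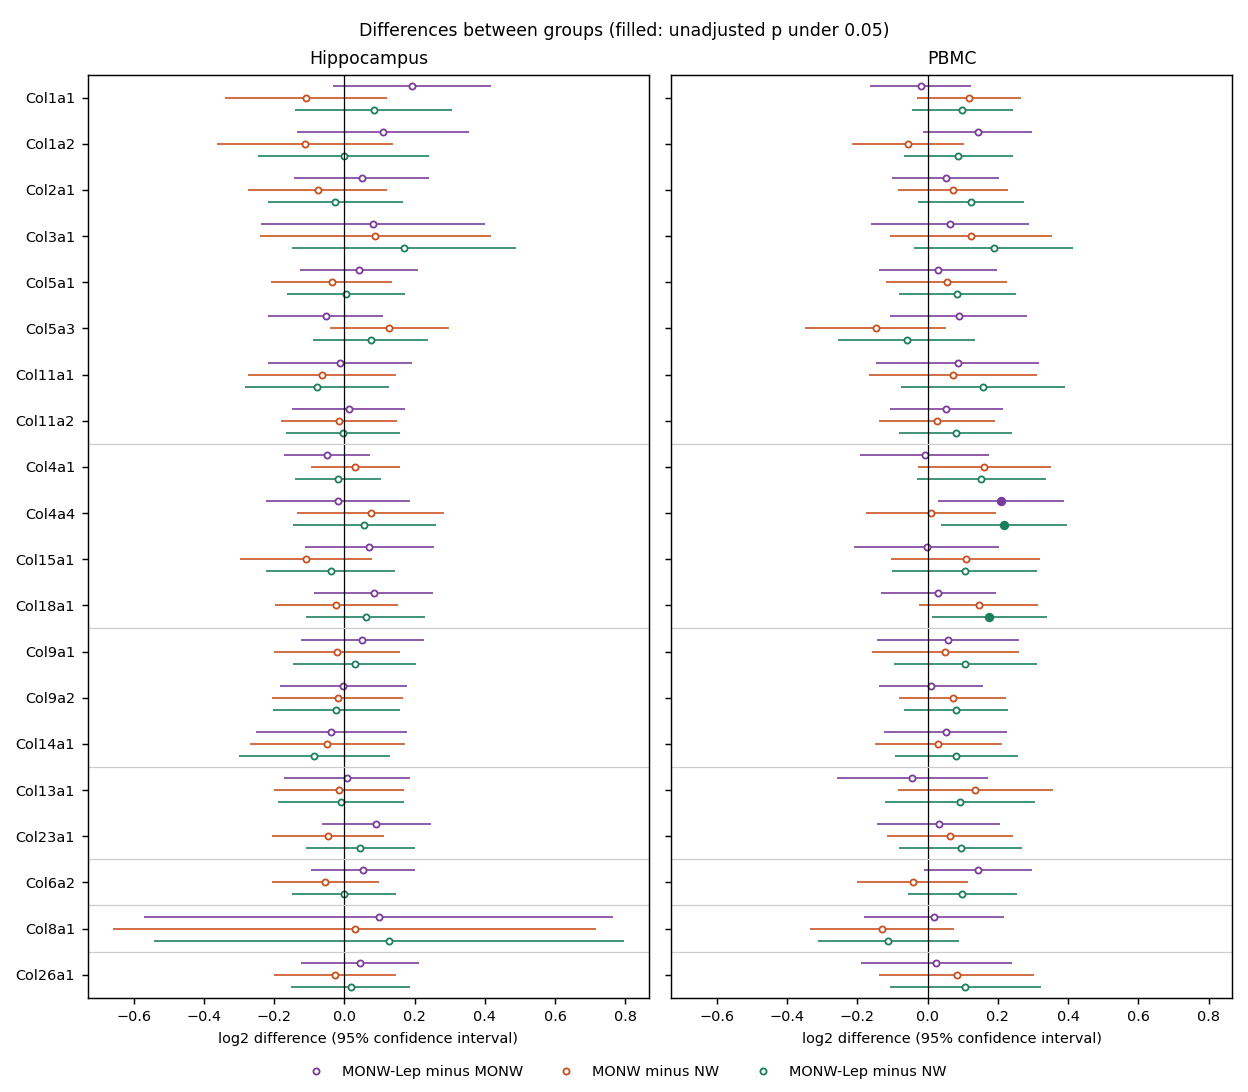
Log2 differences (x axis) with 95% confidence intervals for each collagen gene, for MONW-Lep minus MONW, MONW minus NW and MONW-Lep minus NW, in hippocampus and PBMC. Filled points passed an unadjusted p under 0.05 by limma: *Col4a4* in 2 PBMC comparisons and *Col18a1* in 1, and no gene in hippocampus.

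Values of other cell types and of bordering tissue moved with some of these small differences. The mean of 14 leptomeningeal fibroblast genes was 8.28 in MONW-Lep, 8.00 in MONW and 8.29 in NW hippocampi. Of the 14, 0 passed an unadjusted p under 0.05 in each hippocampus comparison, against 2.34% to 3.1% of all genes. Their summed linear level ran from 4583 to 10677 in MONW-Lep, from 4543 to 9949 in MONW and from 5750 to 10401 in NW arrays, and 6 of the 14 were above background (*Lum* and *Aldh1a2* were not). The 4 arrays with the lowest means, 7.09 to 7.32, were 1 MONW-Lep, 3 MONW and 0 NW arrays. Of 13 endothelial genes, 4 rose in MONW-Lep versus MONW at an unadjusted p under 0.05 (1.38% of all genes rose) and 0 fell. Among the 4, *Cldn5*, a tight junction protein, rose by 0.17 on the log2 scale (adjusted p = 0.999 by limma). The others, *Tek*, *Vwf* and *Tie1*, were not above background. The summed linear level of the 13 ran from 3267 to 3830 in MONW-Lep, from 2936 to 3851 in MONW and from 3231 to 3633 in NW arrays, and 3 of the 13 were above background (*Pecam1*, *Cdh5* and *Vwf* were not). The myelin genes, all 11 of them above background, had signs opposite to these: 0 of 11 were above 0 in MONW-Lep versus MONW (median -0.14, 2 fell, against 1.72% of all genes) and 11 of 11 in MONW versus NW (median 0.18, 2 rose, against 1.63%), with a summed linear level of 17879 to 20449 in MONW-Lep, 17943 to 29564 in MONW and 16947 to 22534 in NW arrays. The 7 striatal genes were above 0 in 0 of 7 in MONW-Lep versus MONW and in 7 of 7 in MONW versus NW, and 0 of the 7 were above background in most arrays, the measure used for each of these lists. MONW replicate 7 had the highest mean of both lists, 9.46 for the striatal and 11.10 for the myelin genes. The medians of the array means in MONW-Lep, MONW and NW were 7.15, 7.24 and 7.18 for the striatal list. For the myelin list they were 10.30, 10.395 and 10.33. The signs of both lists without this array were not counted. The part of these cell types in the collagen values was not tested, and in bulk tissue fewer cells of a type and less RNA per cell cannot be told apart.

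In PBMC, *Col4a4* rose in MONW-Lep versus MONW, as 1 of 20 collagens against 2.45% of all genes (1.34% higher and 1.11% lower). Its log2 values were 5.28, 5.62 and 5.65 (lowest, median and highest) in MONW-Lep, 5.02, 5.36 and 5.51 in MONW, and 5.01, 5.25 and 5.58 in NW PBMC. The 5 highest MONW-Lep arrays lay above all arrays of both other groups, and the other 4 lay among them. The log2 difference was 0.21 ± 0.09 (SE) in MONW-Lep versus MONW (p = 0.0251 by limma, adjusted p = 1.00, exact permutation p = 0.0254) and 0.22 ± 0.09 in MONW-Lep versus NW (p = 0.0191, adjusted p = 0.981, exact permutation p = 0.0189). In MONW versus NW it was 0.01. All 25 values were below the background level of their arrays, and the difference in MONW-Lep versus MONW no longer passed without MONW replicate 2 (0.17) or MONW replicate 4 (0.17), nor did that versus NW without NW replicate 5 (0.18).

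*Col18a1* rose in MONW-Lep versus NW PBMC, so that 2 of 20 collagens did, against 4.75% of all genes (2.36% higher and 2.39% lower). It ran 6.84, 7.11 and 7.23 in MONW-Lep, 6.82, 7.06 and 7.36 in MONW, and 6.58, 6.95 and 7.12 in NW PBMC. The groups overlapped, with 3 MONW-Lep arrays above the highest NW array. The log2 difference was 0.18 ± 0.08 (SE, p = 0.0374 by limma, adjusted p = 0.981, exact permutation p = 0.0275). It was also below background in all 25 arrays, and it lost the threshold in 6 of 25 fits that left out 1 array, those without MONW-Lep replicates 2, 5 and 10 and NW replicates 2, 3 and 8, with the smallest difference, 0.13, without NW replicate 8. With the array mean of 9 monocyte genes as a covariate, a setting chosen after seeing the data, the difference was 0.14 and did not pass. Without MONW-Lep replicate 6, an array in which 11 of the 20 collagens had the lowest value of its group, 7 collagens passed the threshold in MONW-Lep versus NW: *Col2a1*, *Col4a1*, *Col4a4*, *Col9a1*, *Col13a1*, *Col18a1* and *Col23a1*. Without NW replicate 4 it was 4. The share of all genes past the threshold in these 2 fits was not counted, so both counts are a description only.

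In MONW versus NW PBMC, 0 of 20 collagens passed, against 3% of all genes (1.63% higher and 1.38% lower). *Col1a1* passed by the exact permutation test only (exact permutation p = 0.0401, limma p = 0.112). It ran 6.89, 6.99 and 7.15 in MONW and 6.67, 6.87 and 7.03 in NW PBMC, with a log2 difference of 0.12 ± 0.07 (SE). In MONW-Lep versus MONW, the exact permutation test also passed *Col6a2* (log2 difference 0.14, exact permutation p = 0.00926, limma p = 0.0690) and *Col1a2* (0.14, exact permutation p = 0.0351, limma p = 0.0701). *Col6a2* ran 6.66, 6.84 and 6.97 in MONW-Lep, 6.56, 6.67 and 6.82 in MONW, and 6.55, 6.66 and 7.12 in NW PBMC. *Col1a2* ran 7.76, 7.86 and 8.05 in MONW-Lep, 7.42, 7.76 and 7.90 in MONW, and 7.57, 7.79 and 8.02 in NW PBMC. For both genes the NW arrays spanned most of the range of the other groups.

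The signs of the PBMC differences were uneven. Of the 20 collagens, 16 had a difference above 0 in MONW-Lep versus MONW (50.1% of all genes), 16 in MONW versus NW (51.7%) and 18 in MONW-Lep versus NW (52.8%), with medians of 0.04, 0.07 and 0.10 on the log2 scale. All genes had medians of 0.000074, 0.0044 and 0.0072. Single arrays were low for many collagens at once. NW replicate 3 had the lowest value of its group for 12 of the 20, MONW-Lep replicate 6 for 11 and MONW replicate 4 for 9. The signs without these arrays were not counted. As in hippocampus, the comparisons share samples and the collagens covary between arrays, so the counts are a description. All 4 basement membrane genes were above 0 in MONW-Lep versus NW (median 0.16), as were 7 of 8 fibrillar genes (median 0.09) and 3 of 3 FACIT genes (median 0.08). The exceptions were *Col5a3* and *Col8a1*. The monocyte genes mostly had the opposite sign: 2 of 9 were above 0 in MONW-Lep versus MONW, 0 of 9 in MONW versus NW (median -0.17) and 0 of 9 in MONW-Lep versus NW (median -0.25, 4 fell at an unadjusted p under 0.05, against 2.39% of all genes). Of the 9, 5 were above background in most arrays (*Cd14*, *Itgam*, *Vcan* and *Cx3cr1* were not), and their summed linear level ran from 8464 to 13054 in MONW-Lep, from 8019 to 14312 in MONW and from 10831 to 14677 in NW PBMC. All 20 collagens had r below 0 with their mean across PBMC arrays, from -0.62 for *Col5a1* to -0.02 for *Col4a4*, as a description with no test. With that mean as a covariate, 15, 14 and 18 of the 20 collagens were above 0 in these 3 comparisons (medians 0.02, 0.03 and 0.07), *Col4a4* still passed in both of its comparisons (0.21 and 0.22), and *Col5a3* passed in MONW versus NW (-0.20). The mean of the sensory receptor clusters, with which many collagens varied (described later), was 4.40 in MONW-Lep, 4.40 in MONW and 4.41 in NW PBMC.

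Whether a response differed between the tissues was tested as hippocampus minus PBMC in 1 fit of all arrays. For MONW versus NW, 1 of 20 collagens passed an unadjusted p under 0.05, against 3.24% of all genes. This was *Col5a3*, a chain of type V collagen, with 0.13 in hippocampus and -0.15 in PBMC, a difference of 0.28 (adjusted p = 1.00 by limma). In PBMC it ran 6.37, 6.73 and 7.01 in MONW and 6.63, 6.96 and 7.09 in NW rats, and in hippocampus 6.50, 6.84 and 7.19 in MONW and 6.52, 6.79 and 6.90 in NW rats. For MONW-Lep versus MONW (2.49% of all genes) and MONW-Lep versus NW (3.29%), 0 of 20 passed. For *Col4a4* in MONW-Lep versus MONW, the difference between tissues was -0.23, which passed the unadjusted threshold from differences within animals and not in the fit of all arrays.

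Between the tissues, 0 of 20 collagens differed by at least 1 on the log2 scale at an adjusted p under 0.05, whereas 28.9% of all genes did (17.1% higher and 11.8% lower in hippocampus). At any size 9 of 20 differed, 6 higher and 3 lower, against 84.3% of all genes (36.5% higher and 47.8% lower). From differences within animals it was 10 of 20, with *Col11a2* added (-0.09, adjusted p = 0.0392 by limma). The share of all genes past the threshold was not counted for differences within animals, so that count is a description. The sources used here do not say whether the tissues were normalized together, and their negative controls differed (array medians of 5.08 to 5.45 in hippocampus and up to 6.63 in PBMC), so each direction is given with its value after quantile normalization over both tissues. That normalization shifted the difference by a median of -0.12 over all genes.

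*Col1a2* had the largest difference, 8.51 in hippocampus and 7.80 in PBMC, or 1.63-fold (log2 difference 0.71, adjusted p = 6.1e-16 by limma, and 0.61 after normalization). It was higher in hippocampus in 25 of 25 animals. *Col8a1* was 5.80 in hippocampus and 5.16 in PBMC (0.64, adjusted p = 8.5e-05, and 0.55 after normalization), higher in 20 of 25 animals. *Col3a1* was 6.29 in hippocampus and 5.77 in PBMC (0.52, adjusted p = 7.0e-08, and 0.33 after normalization), higher in 23 of 25. These 3 kept the call after normalization. *Col6a2* (0.32) and *Col1a1* (0.24) did not, at 0.08 (adjusted p = 0.0872) and 0.01 (adjusted p = 0.829), and *Col4a1* (0.14) turned to -0.09 (adjusted p = 0.0555). Lower in hippocampus were *Col13a1* (-0.18, and -0.37 after normalization), *Col11a1* (-0.13 and -0.34) and *Col2a1* (-0.13 and -0.26). The other 11 genes, *Col5a1*, *Col15a1* and *Col18a1* among them, lay between -0.09 and 0.10 as deposited and passed no threshold in the fit of all arrays. After normalization 10 of them, all but *Col4a4*, were lower in hippocampus at an adjusted p under 0.05. Of these, *Col18a1* (0.10 as deposited and -0.13) and *Col23a1* (0.01 and -0.22) had their signs turned. The share of all genes past the threshold after normalization was not counted. The median difference over all genes was -0.10 as deposited and -0.16 after normalization, so the count of 10 is a description.

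**Figure D3:**
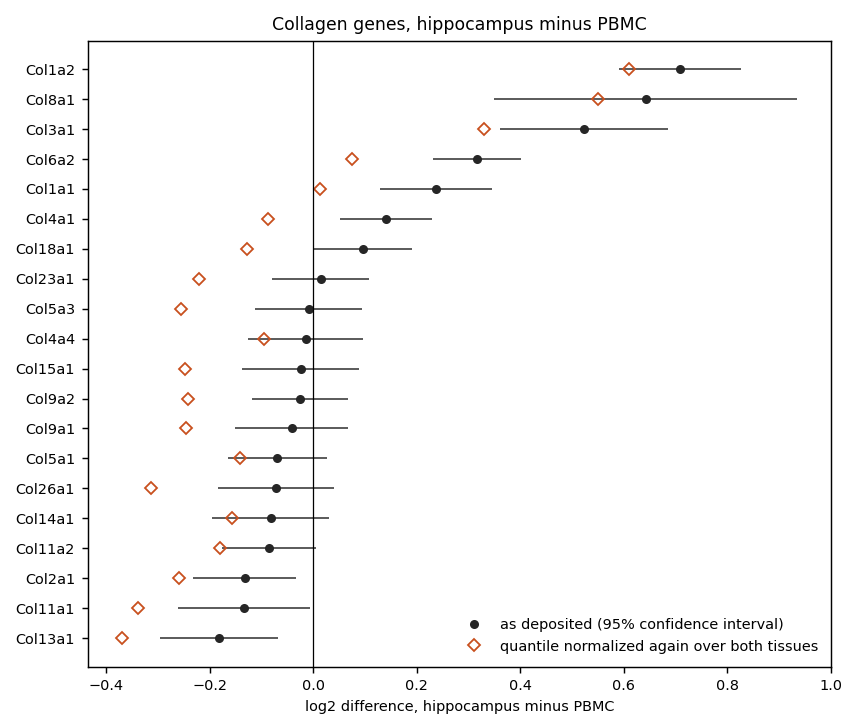
Log2 difference of hippocampus minus PBMC (x axis) for the 20 collagen genes over 25 arrays per tissue. Black points are the deposited values with 95% confidence intervals, and orange diamonds are values after quantile normalization over both tissues. *Col1a2*, *Col8a1* and *Col3a1* stay above 0 under both, as do *Col6a2* and *Col1a1*, which lie near 0 after normalization. *Col4a1*, *Col18a1* and *Col23a1* are on opposite sides.

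A few collagens varied widely between arrays of the same group. Among all genes tested, the within-group standard deviation (SD) in hippocampus was 0.74 for *Col8a1* (percentile 99.8), 0.35 for *Col3a1* (97.1), 0.26 for *Col1a2* (88.2) and 0.24 for *Col1a1* (81.6), and 0.11 for *Col4a1* (11.2). The median gene had 0.18. In PBMC the same 4 genes had an SD of 0.20, 0.23, 0.14 and 0.13, against 0.22 for the median gene. Across the 25 hippocampus arrays with group means removed, *Col1a1*, *Col1a2*, *Col3a1*, *Col6a2* and *Col8a1* were positively correlated in 10 of 10 pairs (Pearson's r 0.31 to 0.76). These 5 were picked after their values were seen, so no test is given for the set. In PBMC the same pairs had r from -0.41 to 0.52.

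For hippocampus, 7 relations were computed, chosen with earlier results known, and adjusted together by Benjamini-Hochberg with two-sided permutation tests. *Col1a1* and *Col1a2*, which form type I collagen together, had r = 0.76 (permutation p = 5e-05, adjusted p = 0.00035) and Spearman's rho = 0.73 (p = 0.00012, adjusted p = 0.00084, permutation). Leaving out the 2 arrays farthest from the median gave r = 0.70, and r was 0.75 within MONW-Lep, 0.93 within MONW and 0.53 within NW rats. *Col1a2* and *Col3a1*, which are made by the same fibroblasts in many tissues, had r = 0.59 (permutation p = 0.0033, adjusted p = 0.0058) and rho = 0.57 (permutation p = 0.0048, adjusted p = 0.0084), with 0.50 without the 2 farthest arrays. Within groups this was 0.67 in MONW-Lep, 0.76 in MONW and 0.23 in NW rats. *Col3a1* and *Col5a1* had r = -0.26 (permutation p = 0.251, adjusted p = 0.292) and rho = -0.15 (permutation p = 0.50, adjusted p = 0.583), with -0.12 without the 2 farthest arrays and -0.44, -0.15 and -0.29 within MONW-Lep, MONW and NW rats.

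The mean of the leptomeningeal fibroblast genes, which holds no collagen, correlated with *Col1a2* at r = 0.74 (permutation p = 0.00018, adjusted p = 0.00063) and rho = 0.68 (permutation p = 0.00046, adjusted p = 0.0016). Without the 2 farthest arrays r was 0.59, and within groups 0.86 in MONW-Lep, 0.635 in MONW and 0.78 in NW rats. With *Col3a1* it had r = 0.64 (permutation p = 0.0018, adjusted p = 0.0042) and rho = 0.62 (permutation p = 0.0023, adjusted p = 0.0054), with 0.56 without the 2 farthest arrays and 0.70, 0.81 and 0.25 within MONW-Lep, MONW and NW rats. Over the 21 arrays outside the 4 lowest, r was 0.53 for *Col1a2* and 0.36 for *Col3a1*. The vascular lists gave positive values too, as a description: the endothelial list had r = 0.60 with *Col1a2* and 0.57 with *Col3a1* (0.54 to 0.64 over the 5 genes), and the list for mural cells, the pericytes and smooth muscle of vessels, had 0.56 and 0.61 (0.28 to 0.61 over the 5 genes). The endothelial list had r = 0.01 with *Col4a1* (permutation p = 0.961, adjusted p = 0.961; rho = 0.07, permutation p = 0.737, adjusted p = 0.737), with 0.20 without the 2 farthest arrays and 0.38, 0.11 and -0.29 within MONW-Lep, MONW and NW rats. With *Col18a1* it had r = -0.29 (permutation p = 0.232, adjusted p = 0.292) and rho = -0.25 (permutation p = 0.277, adjusted p = 0.388), with -0.27 without the 2 farthest arrays and 0.09, -0.61 and 0.12 within MONW-Lep, MONW and NW rats.

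The choroid plexus genes split the hippocampus arrays into 9 with means from 6.24 to 6.82 (3 of each group) and 16 with means from 8.00 to 10.28 (6 MONW-Lep, 5 MONW and 5 NW). Over all 25 arrays, with the gap between the 2 sets included, *Col8a1* had r = 0.90 with the list. *Col6a2* had 0.75, *Col3a1* 0.57, *Col1a2* 0.53 and *Col1a1* 0.27, and the other 15 genes ran from -0.42 to 0.29. Within the 16 arrays, *Col8a1* had r = 0.83 with the list, *Col6a2* 0.52, *Col1a2* 0.43, *Col3a1* 0.20 and *Col1a1* -0.10. Over all 20 genes r ran from -0.41 to 0.83 in this set, with *Col8a1* highest. Within the 9 arrays all 20 genes had r above 0, from 0.18 to 0.88, with *Col23a1* (0.88) and *Col9a2* (0.87) highest and *Col8a1* at 0.51. These are descriptions without a test. The 11 genes include *Ttr* (7.74 to 13.36 over the arrays) and *Kl* (5.26 to 10.67), and 6 of the 11 were above background, with *Folr1* and *Otx2* not among them. The summed linear level of the list ran from 2305 to 23030 in MONW-Lep, from 2014 to 26644 in MONW and from 2224 to 26083 in NW arrays. With the list as a covariate, 0 of 20 collagens passed in each of the 3 hippocampus comparisons.

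**Figure D4:**
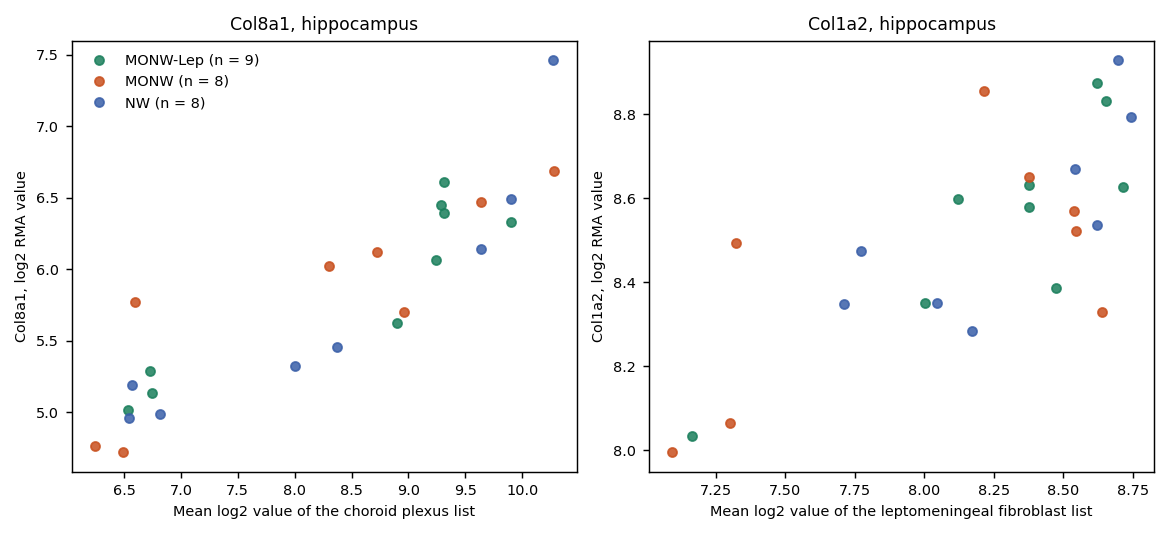
*Col8a1* against the mean of 11 choroid plexus genes and *Col1a2* against the mean of 14 leptomeningeal fibroblast genes (log2 values, 1 point per hippocampus array, coloured by group). The arrays fall into 9 and 16 along the choroid plexus axis, and all 3 groups lie in both sets.

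The other 15 collagens had another pattern, to different degrees. In hippocampus each of them correlated above 0 with the mean of the 1187 sensory receptor clusters (r 0.16 to 0.82), highest for *Col11a2* (0.82), *Col11a1* (0.82), *Col5a1* (0.79) and *Col2a1* (0.79) and low for *Col4a1* (0.16), *Col4a4* (0.23) and *Col14a1* (0.23), whereas the 5 genes above had r from -0.29 to 0.06. *Col2a1* and *Col11a2* had r = 0.84 with each other. With the neuronal list the 15 had r from -0.71 to -0.06, and the 5 genes were below 0 as well (-0.43 to -0.08). In PBMC the 15 again had r above 0 with the receptor clusters (0.16 to 0.76). So had 4 of the 5 genes (-0.13 to 0.80 over the 5), so the sets were not apart in PBMC. *Col6a2*, which in hippocampus had r = 0.75 with the choroid plexus, 0.73 with the leptomeningeal and 0.64 with the endothelial list, had r = 0.80 with the receptor clusters in PBMC. The points share array and normalization, and no test is given.

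**Figure D5:**
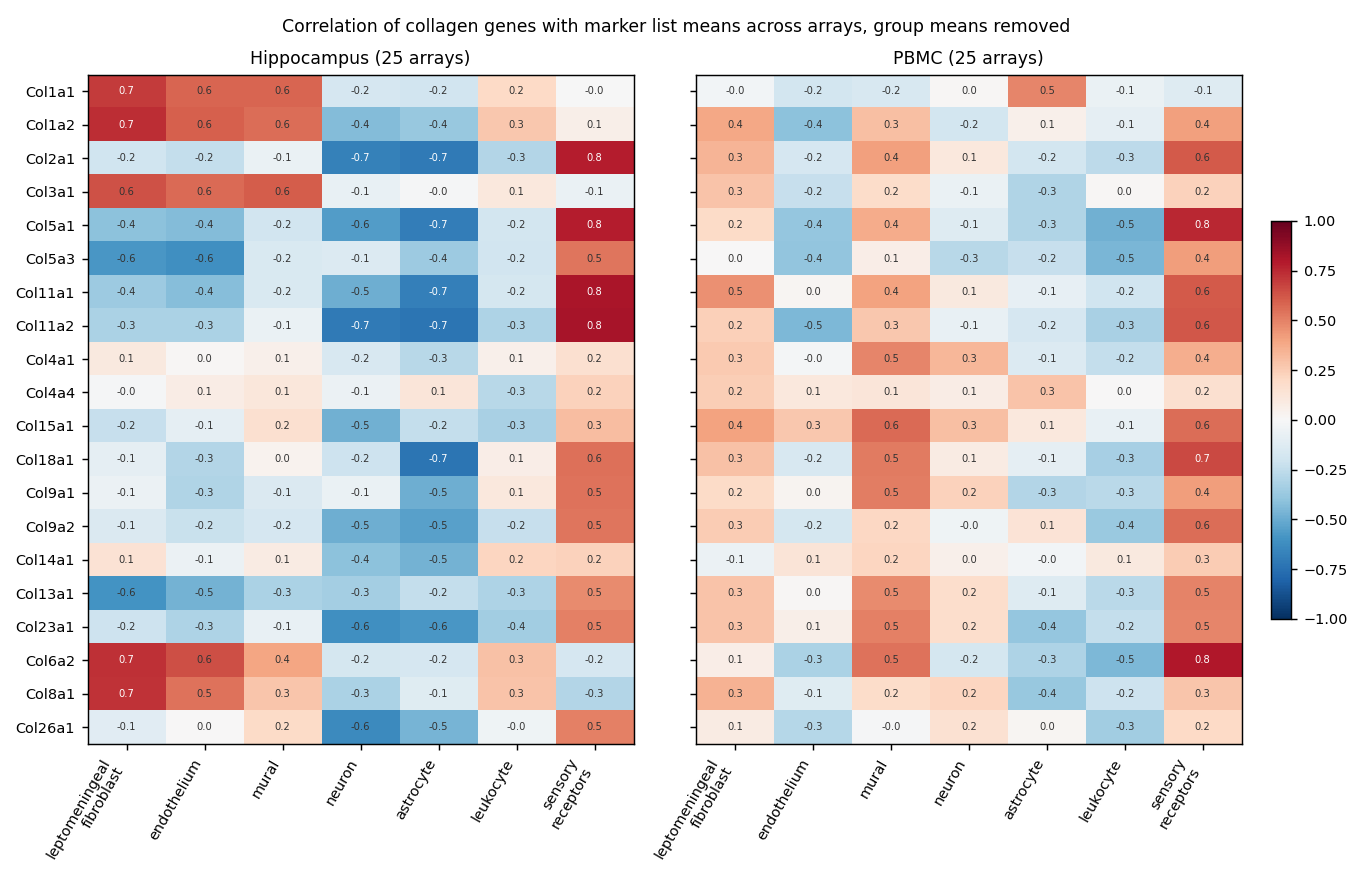
Pearson's r (colour and printed value) of each collagen gene with the array means of marker lists and of the sensory receptor clusters, over 25 arrays per tissue with group means removed. *Col1a1*, *Col1a2*, *Col3a1*, *Col6a2* and *Col8a1* are positive for the leptomeningeal list in hippocampus, and the other 15 genes are positive for the sensory receptor clusters in both tissues. In PBMC, 4 of the first 5 are positive for the sensory receptor clusters too. The choroid plexus list is not drawn.

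Genes that make, bind or break down collagen were counted from lists chosen for their roles, against 2.34% to 3.1% of all genes past the threshold in the hippocampus comparisons and 2.45% to 4.75% in the PBMC comparisons. Of 14 measured genes for chain modification and folding, 1 passed in hippocampus: *Crtap*, a partner in proline 3-hydroxylation of collagen chains, fell in MONW versus NW by 0.24 on the log2 scale (SE 0.08, adjusted p = 0.999 by limma) and rose in MONW-Lep versus MONW by 0.17 (SE 0.08, adjusted p = 0.999 by limma). "Rose" and "fell" here mean an unadjusted p under 0.05. No gene of this list passed in PBMC. Of 8 genes for propeptide removal and crosslinking, *Tll1*, a procollagen C-proteinase, rose in PBMC by 0.26 in MONW-Lep versus MONW and by 0.21 in MONW-Lep versus NW, and none passed in hippocampus. Of 7 collagen receptors, 0 passed in any comparison. Of 13 genes for breakdown and its inhibition, *Mmp10*, a stromelysin, fell in MONW-Lep versus NW hippocampi by 0.24 and rose in MONW-Lep versus NW PBMC by 0.29. Of 9 basement membrane partners, *Lamc3*, a laminin chain, rose in PBMC by 0.15 in MONW versus NW and by 0.17 in MONW-Lep versus NW. *Sparc*, a collagen-binding protein that platelets also hold, rose in MONW-Lep versus NW PBMC by 0.30, with a platelet list mean of 9.77 in MONW-Lep and 9.83 in NW arrays (7 of 7 genes above background, summed linear level 1263 to 16604 in MONW-Lep and 1736 to 18667 in NW arrays), and the part of platelets was not tested. No adjusted p among these was under 0.981.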

How the data were processed

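RNA of 50 samples was measured on Affymetrix Rat Clariom S arrays. The deposited log2 values were made by the authors with RMA, which corrects background, quantile-normalizes arrays and summarizes probes, so a shift shared by all genes would not be seen and isoforms are not told apart. The processing notes name R 4.0.4 and limma, and the annotation version was not given in sources used here. Of 24871 clusters, 1683 were controls, and the 15049 of the other 23188 with 1 gene symbol were tested, without further normalization. Groups came from the sample titles. Each tissue was fitted with limma 3.58.1 in R 4.3.3 (1 mean per group, no covariates, unadjusted p under 0.05 as in the study, with Benjamini-Hochberg adjustment over all clusters tested). Hippocampus and PBMC were compared in 1 fit of all arrays. Single genes had exact two-sided permutation tests (12870 regroupings for 8 against 8 and 24310 for 9 against 8), and correlations had 100000 permutations within groups. Fits and correlations were tested on simulated data. Promoters were taken from RefSeq on GRCr8, for 15 of 20 genes. Protein sequences were not analysed here.

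The members, gene lists and tests were chosen with earlier results of these data known. Named with values were collagens past the threshold, a fixed list of well-known chains, the 3 genes per class with the largest tissue difference, and genes of the pathway lists past the threshold. *Col2a1*, *Col5a3* and *Col11a2* were named after their values were seen. Tissues were paired by group and number in the titles, taken here as the same animal; the deviations of such 2 arrays correlated from -0.09 to 0.14 over 25 pairs. Alternatives were leaving out each array, replicate number as a block, other filters, 2-group fits, quantile normalization, array weights and, added after the data were seen, marker lists as covariates. Python 3.11.15, numpy 2.4.6, scipy 1.17.1 and matplotlib 3.10.9 were used.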

Additional observations from a re-analysis of the deposited data

Results flagged for a closer look

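Of 120 sets of arrays (20 genes in 6 groups), 8 held an array at a distance from the rest beyond Dixon's critical value, and chance gives about 1 in 20. PBMC of MONW-Lep replicate 6 accounted for 4: *Col13a1* was 5.36 against 5.95 to 6.41 in the other arrays, *Col23a1* 6.47 against 6.91 to 7.22, *Col4a1* 6.73 against 6.98 to 7.24 and *Col9a1* 6.77 against 7.23 to 7.59. This array had the lowest mean of the sensory receptor clusters of its group (4.35) and the highest median of negative controls of its group (6.56), and their part in its collagen values was not tested. PBMC of MONW replicate 4 had *Col23a1* at 6.81 against 6.94 to 7.04 and *Col26a1* at 6.31 against 6.64 to 6.88. In hippocampus, *Col4a1* was 6.94 in MONW replicate 5 against 7.17 to 7.37, and *Col9a1* was 6.95 in NW replicate 3 against 7.18 to 7.38.

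The response of *Col5a3* to MONW versus NW differed between the tissues, with 0.13 in hippocampus and -0.15 in PBMC (difference 0.28, past an unadjusted p under 0.05 by limma). The difference between tissues did not pass adjustment over all genes (adjusted p = 0.9996 by limma).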

How the results depend on the processing

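Apart from the arrays left out 1 at a time, these settings changed counts of collagens past the threshold. Array weights gave 1 in hippocampus for MONW-Lep versus MONW (*Col23a1*, 0.15) and 1 for MONW versus NW (*Col15a1*, -0.17), and 2 in PBMC for MONW-Lep versus MONW (*Col4a4* and *Col6a2*), as did the fit of 2 groups only (2), and 3 in PBMC for MONW-Lep versus NW. Exact permutation tests gave 3 in PBMC for MONW-Lep versus MONW and 1 for MONW versus NW. With the replicate number as a block, which leaves MONW-Lep replicate 10 without a partner, 1 in place of 2 passed in PBMC for MONW-Lep versus NW. *Col18a1* had 0.16 there and 0.16 without that array and without the block, and did not pass in either. With the monocyte list as a covariate, 1 passed for MONW-Lep versus NW (*Col4a4*) and 1 for MONW versus NW (*Col5a3*). Without the minimum difference, 9 collagens differed between tissues (84.3% of all genes). By differences within animals it was 10, with *Col11a2* added, and the share of all genes was not counted there. Quantile normalization over both tissues turned the difference of *Col4a1* between tissues from above 0 to -0.087. It also turned *Col18a1* (to -0.13) and *Col23a1* (to -0.22), and changed which genes passed between tissues, as described above. For the difference between tissues in response, 2 collagens passed for MONW versus NW without MONW replicate 7 (*Col5a3* and *Col15a1*), and 1, *Col4a4*, for MONW-Lep versus MONW by differences within animals (the replicate block across tissues). The share of all genes was not counted for either.

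Leaving out each array, the counts ran from 0 to 1 in hippocampus for MONW-Lep versus MONW and for MONW versus NW, and stayed 0 for MONW-Lep versus NW. The 1 came without MONW-Lep replicate 7 (*Col1a1*), MONW replicate 3 (*Col5a3*) or MONW replicate 7 (*Col15a1*). In PBMC they ran from 0 (without MONW replicate 2 or 4) to 2 (without MONW-Lep replicate 6, MONW replicate 8 or NW replicate 4) for MONW-Lep versus MONW, from 0 to 1 (without MONW replicate 4 or 5 or NW replicate 6) for MONW versus NW and from 1 to 7 for MONW-Lep versus NW, with 7 without MONW-Lep replicate 6, 4 without NW replicate 4 and 1 without MONW-Lep replicate 2, 5 or 10 or NW replicate 2, 3, 5 or 8. The share of all genes past the threshold was not counted in these fits or in the settings within a tissue above, so the counts are a description. The 7 relations kept their side of the threshold without the 2 farthest arrays and without MONW replicate 7.

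Same-numbered arrays of different groups come from different animals and were not paired. Their deviations correlated from -0.43 to 0.45, against -0.09 to 0.14 for arrays taken as the same animal. These values therefore settle neither choice of pairing. The block changed no other count within a tissue. With only genes above background, no collagen was left in PBMC. The relations of *Col4a1* with *Col4a2* and *Col6a1* with *Col6a2*, and the features of the proteins, were not run, since *Col4a2*, *Col6a1* and protein sequences were not in the tables used here. Most collagens lay below the background level, and the number of arrays limits the precision.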
